A study of Rattus norvegicus with 16 samples.

Results

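Expression of B cell genes was followed in the lungs of 16 male Sprague-Dawley rats, 1 array per rat and 4 rats per group. The set comprised 9 genes (Cd22, Cd79a, Cd79b, Ms4a1, Pou2af1, Pax5, Blk, Cr2 and Cxcr5). They were chosen by symbol, with earlier results of these data known. Of these, 7 had a probe set annotated to that symbol and no other, with 1 probe set each, among 14506 genes measured in all. Cd79a and Pax5 had no such probe set and were not analysed here. In the fulvestrant group, a subcutaneous pump released estradiol, the main circulating estrogen, for 3 weeks (75 µg/kg/day), and fulvestrant, an antagonist of the nuclear estrogen receptors, was injected daily (3 mg/kg/day). Hypobaric hypoxia (362 mmHg, or 10% oxygen in sea-level terms) filled 2 of those weeks and began 1 week after pump placement. The estradiol group received the same pump and hypoxia without fulvestrant, the hypoxia group received hypoxia alone, and the normoxia group stayed at normal pressure. The labels do not say whether rats of the last 2 groups carried pumps without drug. The series title asks about the part of estrogen receptors in the action of estradiol on the hypoxic lung. RNA came from homogenised right lung whose vessels had been flushed with saline, so every value is an average over all cells of the lung.

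B cells make antibodies. Each carries a membrane immunoglobulin as its antigen receptor, which signals through the paired chains Cd79a and Cd79b, with Src family kinases such as Blk acting first. Coreceptors set the threshold of that signal: Cr2 binds complement fragments on antigen and promotes it, while Cd22 binds sialic acid and restrains it. Pax5 commits cells to the lineage and Pou2af1 assists octamer-binding factors at immunoglobulin and other B cell promoters, while Cxcr5 draws B cells towards follicles along the chemokine Cxcl13. In the lung, B cells lie in the vessels, in the walls of the airways and in lymphoid aggregates.

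Values are log2 RMA signals, on which a difference of 1 means a 2-fold change. Differences were tested with limma in 1 model over all 16 arrays, and adjusted p is the Benjamini-Hochberg value over all 14506 genes, with a threshold of 0.05. Signals of different probe sets are not on a common scale, so levels were compared between arrays for each gene and not between genes. Array medians lay between 7.69 and 7.77 and correlations between arrays between 0.985 and 0.996. The second principal component was lowest in estradiol replicates 2 (-25.4) and 3 (-22.3). The labels of normoxia replicate 4 conflict: the title gives normoxia, the treatment field hypoxia. The title was followed, and its first principal component (-19.7) lay among those of the other normoxia arrays (-20.8 to -12.0) and away from the 12 other arrays (-2.05 to 16.3). With it counted as hypoxia, every call on a gene named below was lost except those on Ccl21 with estradiol and with fulvestrant against normoxia.

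In hypoxia against normoxia, all 7 B cell genes were lower on average, and 2 passed the test. Cd22 fell by 0.81 (SE 0.21, adjusted p = 0.0340) and Pou2af1 fell by 0.51 (SE 0.12, adjusted p = 0.0214) on the log2 scale. The other 5 were between 0.38 and 1.04 lower in log2 terms and did not pass. Of all genes, 5.63% passed in either direction and 2.43% passed as lower. All 7 had an unadjusted p under 0.05, where 20.4% of all genes did. The median difference of the 7 genes was -0.74, against 0.03 over all genes, of which 42.0% were below zero. In whole lung, fewer B cells and less RNA per B cell cannot be told apart.

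Cd22 (probe set 10720797) gave 8.06, 7.56, 8.22 and 8.38 in hypoxia, against 9.43, 8.47, 8.54 and 9.02 in normoxia, in the order of replicates 1 to 4. Every hypoxia array lay below every normoxia array, although hypoxia replicate 4 was only just under normoxia replicate 2. The difference had a 95% interval from -1.26 to -0.36, and the mean signal fell by 43.0% in hypoxia. The RefSeq promoter table (GRCr8) held the promoter of 2 of the 7 genes, Cd22 and Cr2. That of Cd22, the called gene among them, is printed because this gene fell in hypoxia, from 250 bases before to 50 after the start, at chr1:95259681-95259980 on the minus strand. Capitals mark the letters ACGTG, a form of the core of the hypoxia response element, searched on both strands. Other forms of that core were not searched.
Cd22: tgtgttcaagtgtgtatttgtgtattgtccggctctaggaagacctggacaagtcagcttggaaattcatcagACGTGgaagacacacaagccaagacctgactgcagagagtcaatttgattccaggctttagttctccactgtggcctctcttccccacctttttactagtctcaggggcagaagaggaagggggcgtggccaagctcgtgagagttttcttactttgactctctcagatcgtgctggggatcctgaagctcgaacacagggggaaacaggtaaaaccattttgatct
The letters ACGTG occur 1 time, at -177 from the start and on the strand of the gene, and 19.3% of 33469 rat promoters of this length hold them. None of the other 5 motifs searched had a match in it: the octamer ATGCAAAT (in 1.78% of promoters), the palindromic EBF site (0.834%), the PU.1 site GAGGAAGT (2.42%), the palindromic estrogen response element (0.0269%) and its single arm AGGTCA (16.2%). The promoter of Cr2 had no match to any of the 6. A match to letters describes the sequence alone and is not evidence of binding.

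Pou2af1 (probe set 10909948) gave 8.54, 8.22, 8.49 and 8.39 in hypoxia, against 8.99, 8.80, 8.78 and 9.13 in normoxia. The groups did not overlap, and of the 7 genes it had the smallest spread in normoxia (SD 0.168). Its mean signal fell by 29.9% in hypoxia, with a 95% interval of the log2 difference from -0.77 to -0.25.

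Ms4a1, which encodes the membrane protein CD20, gave 7.55, 6.50, 7.51 and 7.63 in hypoxia, against 9.09, 7.71, 7.69 and 8.88 in normoxia. These groups did not overlap either, and the difference of -1.04 (SE 0.33) was the greatest of the 7 genes, but it did not pass (adjusted p = 0.0800). The normoxia arrays were split, with replicates 1 and 4 more than 1 log2 unit above replicates 2 and 3. Of the 7 genes, 3 had groups that did not overlap with hypoxia lower (Cd22, Ms4a1 and Pou2af1), as did 5.33% of all genes.

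Among the receptor's own signalling parts, Cd79b gave 10.28, 9.40, 10.04 and 10.35 in hypoxia, against 11.25, 10.33, 10.29 and 11.16 in normoxia. Blk gave 7.81, 7.49, 8.09 and 7.67 in hypoxia, against 8.41, 8.17, 7.94 and 8.25 in normoxia. Both sets of arrays overlapped. Neither the -0.74 of Cd79b (SE 0.23, adjusted p = 0.0702) nor the -0.43 of Blk (SE 0.12, adjusted p = 0.0528) passed.

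The complement receptor Cr2 gave 6.56, 6.35, 7.42 and 6.93 in hypoxia, against 8.55, 6.53, 7.21 and 8.27 in normoxia. Cxcr5 gave 8.76, 8.62, 8.88 and 8.62 in hypoxia, against 9.51, 8.78, 8.67 and 9.44 in normoxia. In both genes normoxia replicates 1 and 4 stood above every hypoxia array, while normoxia replicates 2 and 3 lay within or near the hypoxia range. The differences of -0.82 for Cr2 (SE 0.35, adjusted p = 0.196) and -0.38 for Cxcr5 (SE 0.17, adjusted p = 0.207) did not pass.

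**Figure D1:**
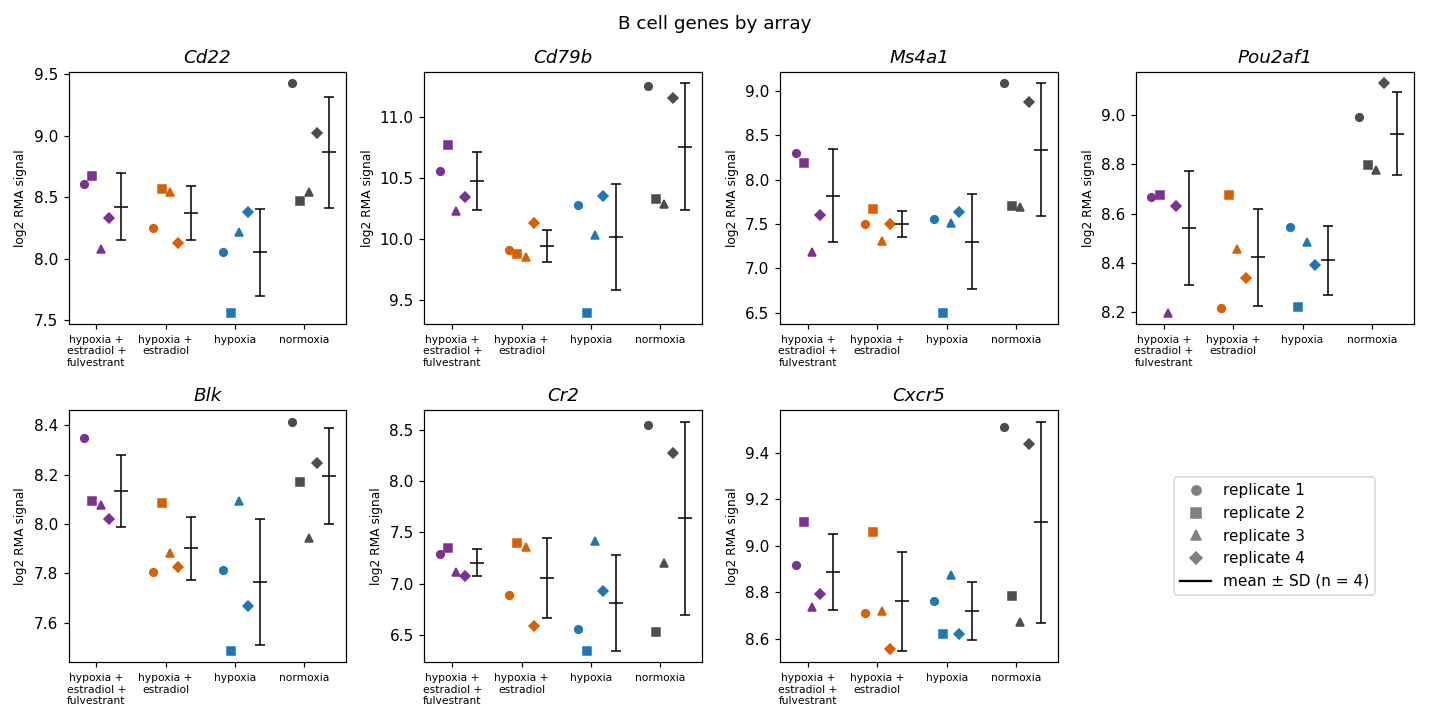
Log2 RMA signal (vertical axes) of each of the 7 B cell genes on each array, by group, with marker shape for the replicate and bars for mean ± SD (n = 4). Normoxia replicates 1 and 4 are above normoxia replicates 2 and 3 in 7 of 7 genes, and Ms4a1 in hypoxia replicate 2, at 6.50, is far under the rest of its group.

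The split within normoxia was common to the genes. Normoxia replicates 1 and 4 were above normoxia replicates 2 and 3, and above all 4 hypoxia arrays, in 7 of 7 genes. Hypoxia replicate 2 was the lowest of its group in 7 of 7 genes and the lowest of all 16 arrays in 5. Averaged over the 7 genes and set against the normoxia mean, the hypoxia arrays were at -0.61, -1.10, -0.45 and -0.55, against 0.49, -0.43, -0.39 and 0.33 for the normoxia arrays. Normoxia replicates 2 and 3 were thus only slightly above hypoxia replicate 3. The median SD of the 7 genes was 0.353 in hypoxia, where it was 0.115 over all genes, and 0.448 in normoxia, where it was 0.107 over all genes.

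The 2 calls rest on particular arrays. Without normoxia replicate 1, normoxia replicate 4 or hypoxia replicate 2 none of the 7 genes passed, without hypoxia replicate 1 only Pou2af1 passed, and without normoxia replicate 3 there were 5 that passed (Cd22, Cd79b, Ms4a1, Pou2af1 and Blk). With normoxia replicate 4 counted as hypoxia the difference was -0.56 for Cd22 (adjusted p = 0.327) and -0.30 for Pou2af1 (adjusted p = 0.407), and none passed.

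Hypoxia with estradiol against hypoxia asks whether estradiol altered the genes in the hypoxic lung. In limma 0 of 7 genes passed, where 0.772% of all genes did, and 0 had an unadjusted p under 0.05, where 16.1% of all genes did. The differences ran from -0.07 for Cd79b to 0.32 for Cd22 with a median of 0.14, against -0.02 over all genes. Cd22 gave 8.25, 8.56, 8.54 and 8.13 with estradiol, against the 7.56 to 8.38 of hypoxia alone given above, and the groups overlapped. The 95% interval of its difference ran from -0.13 to 0.76. Pou2af1 gave 8.22, 8.68, 8.46 and 8.34 with estradiol, against 8.22 to 8.54 in hypoxia alone. Its difference of 0.01 had an interval from -0.25 to 0.27.

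Ms4a1 gave 7.50, 7.67, 7.31 and 7.50 with estradiol, against 6.50 to 7.63 in hypoxia alone. Cd79b gave 9.91, 9.88, 9.85 and 10.13 with estradiol, against 9.40 to 10.35 in hypoxia alone. In both genes the 4 estradiol arrays lay closer together (SD 0.147 for Ms4a1 and 0.129 for Cd79b) than the 4 hypoxia arrays (SD 0.535 for Ms4a1 and 0.433 for Cd79b). A test of the spreads was not run. Blk gave 7.81, 8.09, 7.88 and 7.83 with estradiol, a difference of 0.14 with an interval from -0.13 to 0.40. Cr2 gave 6.90, 7.40, 7.36 and 6.59 with estradiol, a difference of 0.24 with an interval from -0.50 to 0.99. Cxcr5 gave 8.71, 9.06, 8.72 and 8.56 with estradiol, a difference of 0.04 with an interval from -0.31 to 0.40. Estradiol replicate 2 was the highest of its group in 6 of the 7 genes. The sign of the estradiol difference was not stable for Cd79b, Ms4a1, Pou2af1, Cr2 and Cxcr5, each of which took the opposite sign in at least 1 alternative processing.

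Adding fulvestrant to estradiol likewise moved none of the genes past the threshold: limma called 0 of 7, where 0.0483% of all genes were called, and 1 of 7 had an unadjusted p under 0.05, where 14.8% of all genes did. All 7 differences were above zero, from 0.05 for Cd22 to 0.53 for Cd79b, with a median of 0.15. The median over all genes was 0.005, with 48.5% of them below zero. Without estradiol replicate 4 the differences of Cd22 and Cr2 turned negative, as did that of Cd22 without fulvestrant replicate 1 or 2. Cd79b gave 10.56, 10.77, 10.23 and 10.35 with fulvestrant, against 9.91, 9.88, 9.85 and 10.13 with estradiol alone. These arrays did not overlap, which with fulvestrant higher held for 4.78% of all genes, and the difference did not pass (unadjusted p = 0.0337, adjusted p = 0.289).

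The other genes overlapped between the fulvestrant and estradiol groups. Ms4a1 gave 8.30, 8.19, 7.19 and 7.60 with fulvestrant, a difference of 0.33 from estradiol alone with an interval from -0.38 to 1.03. Blk gave 8.35, 8.09, 8.08 and 8.02, a difference of 0.23 with an interval from -0.03 to 0.50. Cd22 gave 8.61, 8.67, 8.08 and 8.33 with fulvestrant. Replicate 3 was the lowest of the fulvestrant group in 5 of 7 genes, Cd22 among them. Pou2af1 gave 8.67, 8.68, 8.20 and 8.63 with fulvestrant. Cr2 gave 7.29, 7.35, 7.11 and 7.08, and Cxcr5 gave 8.92, 9.10, 8.74 and 8.79. The differences from estradiol alone were 0.12 for Pou2af1, 0.15 for Cr2 and 0.13 for Cxcr5, with adjusted p between 0.712 and 0.901.

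**Figure D2:**
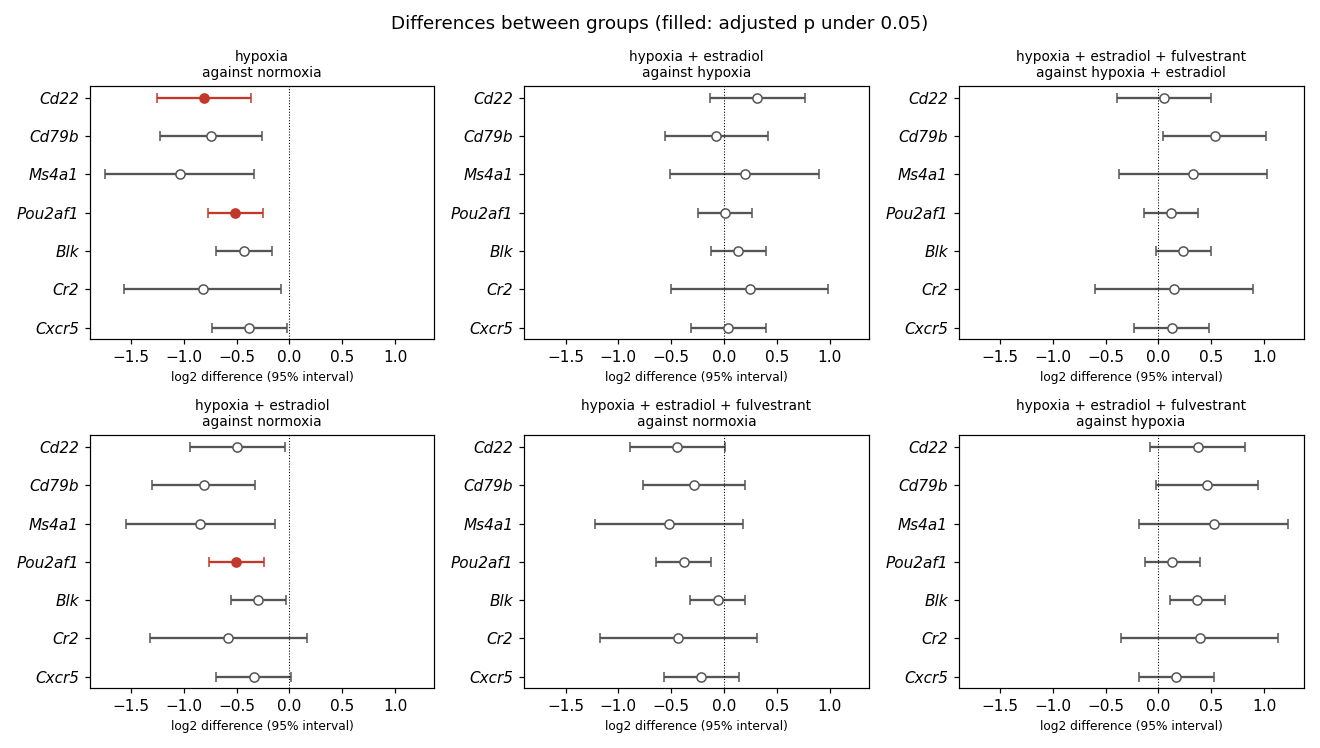
Log2 difference (horizontal axes) between groups for each of the 7 B cell genes in all 6 comparisons, with 95% intervals from limma. Points are filled where adjusted p was under 0.05: Cd22 and Pou2af1 in hypoxia against normoxia, and Pou2af1 in hypoxia with estradiol against normoxia.

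Set against normoxia, the hypoxic groups that also received drugs were lower in all 7 genes on average. Of all genes, 49.9% were below zero with estradiol and 48.6% with fulvestrant. With estradiol, 1 gene passed: Pou2af1 was 0.50 lower (SE 0.12, adjusted p = 0.0265), where 5.21% of all genes passed and 2.34% passed as lower. In limma 5 of the 7 had an unadjusted p under 0.05 with estradiol, where 17.8% of all genes did. Cd79b (-0.81, adjusted p = 0.0506) and Ms4a1 (-0.84, adjusted p = 0.179) did not pass, although in these and in Pou2af1 no estradiol array reached the lowest normoxia array, as in 4.18% of all genes. Pou2af1 no longer passed without normoxia replicate 1 or 4 or without estradiol replicate 1 or 3, nor with normoxia replicate 4 counted as hypoxia. Cd79b passed beside it without normoxia replicate 2 or 3 or hypoxia replicate 2. With fulvestrant 0 of 7 passed in limma, where 2.96% of all genes did, and 1 had an unadjusted p under 0.05, where 15.3% of all genes did. The differences ran from -0.52 for Ms4a1 to -0.06 for Blk, with a median of -0.38. Pou2af1 was at -0.38 (adjusted p = 0.120), with all 4 fulvestrant arrays under the lowest normoxia array, as in 5.20% of all genes.

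For the fulvestrant group against hypoxia alone, limma called 0 of 7 genes and 0% of all 14506 genes. At an unadjusted p under 0.05 there were 1 of the 7 and 6.96% of all genes. The 7 differences were all above zero, from 0.13 for Pou2af1 to 0.52 for Ms4a1, with a median of 0.37 against -0.02 over all genes. Blk had the smallest p, with 8.35, 8.09, 8.08 and 8.02 in the fulvestrant group, against 7.81, 7.49, 8.09 and 7.67 in hypoxia alone (difference 0.37, unadjusted p = 0.00854, adjusted p = 0.572). Hypoxia replicate 3 reached the fulvestrant range. These comparisons share the hypoxia, estradiol and normoxia arrays, so their differences are not independent of each other. From low to high, the group means ran hypoxia, estradiol, fulvestrant and normoxia for Cd22, Ms4a1, Pou2af1, Blk, Cr2 and Cxcr5, and estradiol, hypoxia, fulvestrant and normoxia for Cd79b. No neighbours in those orders differed past the threshold.

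The 7 genes varied together across the arrays. Over the 21 pairs of genes, Pearson's r over the 16 arrays lay between 0.689 and 0.936, with a median of 0.798. With the group means removed it lay between 0.522 and 0.934, with a median of 0.712. These are descriptions, and pairs share their arrays. Ms4a1 followed the mean of the other 6 most closely (r = 0.954, and 0.920 with group means removed), and Blk least closely (0.812 and 0.706).

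Genes of the wider B cell programme were taken as lists. Of 15 measured genes of receptor signalling and coreceptors, 2 fell in hypoxia against normoxia and 0 rose, with a median of -0.21. Of all genes, 2.43% fell past the threshold in this comparison. Prkcb, the protein kinase C of the B cell receptor pathway, fell by 0.54 (adjusted p = 0.0218), and Plcg2, the phospholipase upstream of it, fell by 0.38 (adjusted p = 0.0453). The count was 0 without normoxia replicate 1, normoxia replicate 4 or hypoxia replicate 1, and 1 without normoxia replicate 2, hypoxia replicates 2, 3 or 4, estradiol replicate 4 or any of the fulvestrant replicates.

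Of 13 B lineage transcription factors, 5 fell in hypoxia against normoxia and 0 rose, with a median of -0.26, where 2.43% of all genes fell. Ikzf3 (Aiolos) fell by 0.69 (adjusted p = 0.0101) and its relative Ikzf1 (Ikaros), which all lymphoid lineages use, fell by 0.64 (adjusted p = 0.00353). Bcl11a fell by 0.50 (adjusted p = 0.0277), Bach2, a repressor that delays plasma cell differentiation, by 0.47 (adjusted p = 0.0322), and Foxo1, which many cell types use, by 0.29 (adjusted p = 0.0298). Ikzf1, Ikzf3 and Foxo1 did not overlap between hypoxia and normoxia, as in 5.33% of all genes with hypoxia lower. The count was 2 without normoxia replicate 1 or 4 or hypoxia replicate 2 or 4, and 0 with normoxia replicate 4 counted as hypoxia.

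In hypoxia with estradiol against hypoxia, 1 gene of all the B cell lists passed, where 0.772% of all genes did. Ebf1, an early B lineage factor that stromal and fat cells also express, fell by 0.38 (adjusted p = 0.0392). Ebf1 passed in 10 of 26 alternatives, and did not without normoxia replicate 2, any of the hypoxia or fulvestrant replicates, or estradiol replicate 2 or 3. In hypoxia with estradiol against normoxia, Ikzf3 (-0.65), Ikzf1 (-0.41) and Foxo1 (-0.34) were lower (adjusted p = 0.0168, 0.0498 and 0.0147). Without normoxia replicate 1 none of these 3 passed, and Ikzf1 passed in 7 of 26 alternatives. In the fulvestrant group against normoxia, Plcg2 (-0.46, adjusted p = 0.0253) and Foxo1 (-0.33, adjusted p = 0.0234) were lower, and neither passed without normoxia replicate 1 or 4 or fulvestrant replicate 3 or 4. Plcg2 also did not pass without normoxia replicate 2, nor Foxo1 without fulvestrant replicate 1.

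Few genes of later B cell stages, or of help from other cells, passed. The 7 measured plasma cell genes had a median of 0.14 in hypoxia against normoxia, with 4 above zero. Of them, 1 fell past the threshold: Prdm1 (Blimp-1), which drives plasma cell differentiation and also acts in T cells, by 0.42 (adjusted p = 0.00851). It was also lower with estradiol against normoxia (-0.49, adjusted p = 0.00404). Prdm1 had an adjusted p of 0.245 in hypoxia and 0.0603 with estradiol when normoxia replicate 4 was grouped with hypoxia. Of 11 measured survival and costimulation genes (median -0.04), 1 fell: Cd40lg, the T cell ligand of Cd40, by 0.70 (adjusted p = 0.0301). Without normoxia replicate 1, 2 or 4 or hypoxia replicate 1, 3 or 4, 0 of these 11 passed, and without normoxia replicate 3 there were 2, as there were in the plasma cell list without normoxia replicate 4. Of 10 class II antigen presentation genes, 0 passed in limma in hypoxia against normoxia, with 1 at an unadjusted p under 0.05 (20.4% of all genes), and their median was -0.08.

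The follicle and homing list held genes that rose and a gene that fell. Cxcl13, the ligand of Cxcr5 and the main chemokine of B cell follicles, gave 8.64, 9.06, 9.79 and 9.52 in hypoxia, against 7.29, 7.65, 8.35 and 8.97 in normoxia. It rose by 1.19 (SE 0.33, adjusted p = 0.0459) while its receptor gene stood at -0.38, and hypoxia replicate 1 lay under normoxia replicate 4. The call on Cxcl13 held in 13 of 26 alternatives, and was lost without normoxia replicate 1, 2 or 3, hypoxia replicate 2, 3 or 4, estradiol replicate 1 or fulvestrant replicate 2, 3 or 4. Ccl21, which draws Ccr7-bearing lymphocytes and dendritic cells into lymphoid tissue, rose by 1.09 in hypoxia (adjusted p = 0.000133), by 0.86 with estradiol (adjusted p = 0.000926) and by 1.09 with fulvestrant (adjusted p = 0.000136), each against normoxia. Its receptor Ccr7 fell by 0.72 in hypoxia (adjusted p = 0.00314) and by 0.50 with estradiol (adjusted p = 0.0316) against normoxia, the second of which was lost without normoxia replicate 1, 2 or 4 or estradiol replicate 2 or 3. Grouping normoxia replicate 4 with hypoxia gave adjusted p of 0.0564 for Ccl21 and 0.296 for Ccr7 in hypoxia against normoxia.

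Cxcl13 gave 8.01, 8.53, 8.69 and 7.69 with estradiol, against the 8.64 to 9.79 of hypoxia alone, a difference of -1.02 that did not pass (adjusted p = 0.152). It gave 8.04, 7.47, 7.35 and 7.52 with fulvestrant, a difference of -1.66 from hypoxia alone that did not pass (adjusted p = 0.361). Across the 16 arrays r between Cxcl13 and the mean of the 7 B cell genes was -0.25, and 0.24 with group means removed.

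Markers of other blood cells moved in the same comparison. In hypoxia against normoxia, where 2.43% of all genes fell past the threshold, 9 of 13 T cell markers fell and 0 rose (median -0.60). Among those that fell were Il7r (-0.78), Trat1 (-0.75), Cd3d (-0.69) and Lck (-0.68). Of 10 natural killer markers 9 fell and 0 rose (median -0.91), led by Gzma (-1.32), Gzmk (-1.11), Klrd1 (-1.04) and Prf1 (-0.98). The T cell count was 5 without normoxia replicate 1 or 4 or hypoxia replicate 1. Of 6 genes common to leukocytes, Ptprc (-0.45) and Coro1a (-0.52) fell and 0 rose past the threshold, but 3 of the 6 were above zero (median -0.12). The largest change in that list was that of Cd52 (0.85), which did not pass (limma, adjusted p = 0.0646). The 6 neutrophil markers had a median of -0.76 with 0 past the threshold in limma and 4 at an unadjusted p under 0.05 (20.4% of all genes). Past the threshold, 465 of all 14506 genes rose in this comparison. Of 7 alveolar macrophage markers 4 rose (median 0.79), and 2 without normoxia replicate 1 or 2 or hypoxia replicate 1 or 4. Erythroid markers had a median of 1.35 with 1 of 7, Hemgn (1.27), past the threshold. That count was 5 without hypoxia replicate 3, and 0 without any of the normoxia replicates, any other hypoxia replicate, or fulvestrant replicate 1 or 3. Their mean over the 7 genes lay between -0.07 and 1.82 in hypoxia, against -0.13 to 0.19 in normoxia, and hypoxia replicate 3 was the array at -0.07. The 7 lung epithelial markers had a median of -0.08, with Hopx (-0.22) lower, and 0 passed without normoxia replicate 1 or hypoxia replicate 1 or 2, or with only the 2 groups fitted. Of 3 plasmacytoid dendritic cell markers, which share Tcf4 and Irf7 with other cells, 0 passed in limma and 2 had an unadjusted p under 0.05. With normoxia replicate 4 counted as hypoxia, 0 genes of any list in this paragraph passed. The part of other cell types in the B cell differences was not tested.

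In hypoxia with estradiol against hypoxia, where 0 of 7 B cell genes and 0.772% of all genes passed, all 6 neutrophil markers rose (median 1.67). They were led by Mmp8 (1.94), S100a8 (1.74), Retnlg (1.73) and S100a9 (1.61). Of 13 T cell markers 1 rose, Il7r (0.90, adjusted p = 0.0362), and 0 fell. Of 7 alveolar macrophage markers 1 rose, Mrc1 (0.49, adjusted p = 0.0362), and 0 fell. Without hypoxia replicate 2 or estradiol replicate 2 or 3, 0 genes of these lists passed. Without hypoxia replicate 1, 3 or 4 the neutrophil count was 1, 2 and 1, and Il7r did not pass without hypoxia replicate 1 or 3. Mrc1 did not pass without hypoxia replicate 1 or 4.

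**Figure D3:**
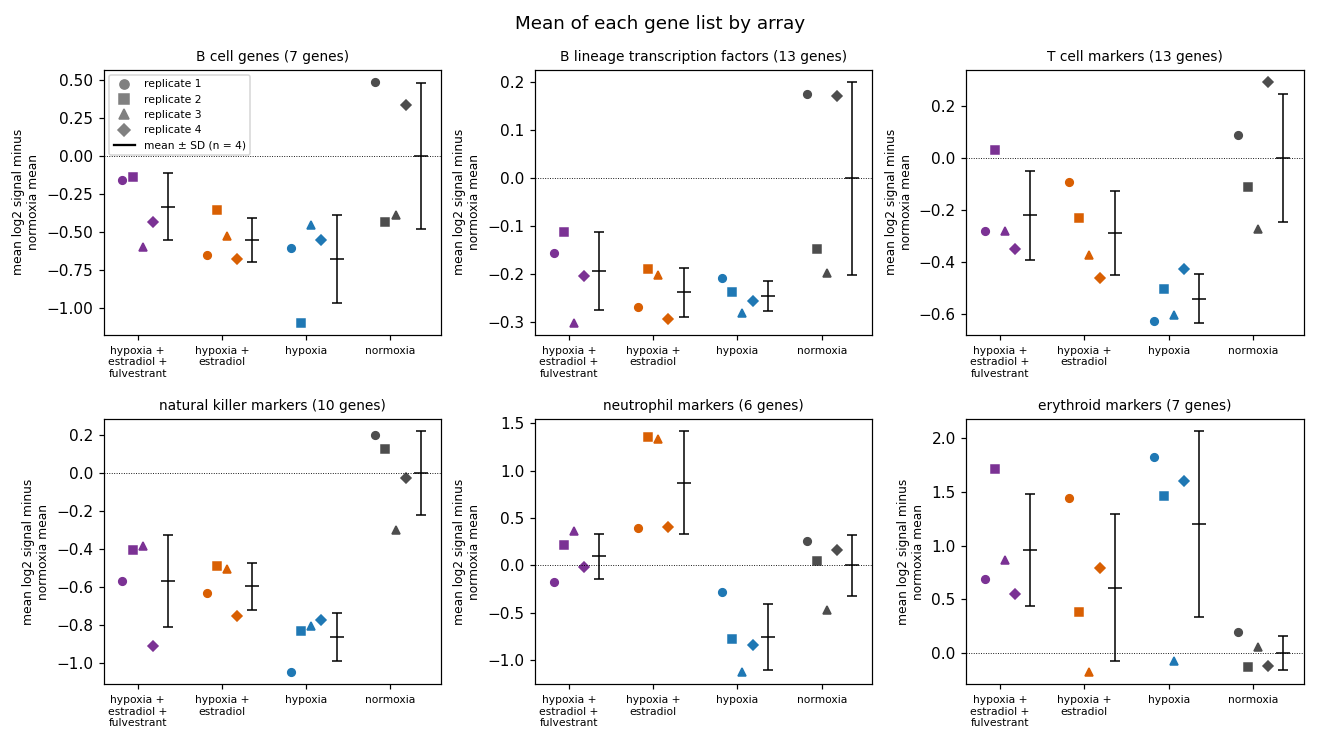
Mean log2 signal of 6 gene lists on each array minus the normoxia mean of the list (vertical axes), by group, with marker shape for the replicate and bars for mean ± SD (n = 4). The B cell genes of normoxia replicates 2 (-0.43) and 3 (-0.39) lie within the ranges of the estradiol (-0.68 to -0.36) and fulvestrant (-0.60 to -0.14) arrays. They are slightly above the highest array of hypoxia alone (-0.45). The natural killer markers of all 4 hypoxia arrays (-1.05 to -0.77) are under all 4 normoxia arrays (-0.30 to 0.20).

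The array order of the B cell genes was shared to different degrees by the lists. With the mean of the 7 B cell genes, r over 16 arrays was 0.890 for the B lineage transcription factors, 0.759 for the T cell markers and 0.693 for the natural killer markers. It was 0.622, 0.50 and 0.381 without normoxia replicates 1 and 4, the farthest 2 arrays. With group means removed, r was 0.830 for the transcription factors, 0.540 for the T cell markers and 0.304 for the natural killer markers, against 0.904, 0.617 and 0.536 without normoxia replicate 2 and hypoxia replicate 2, the farthest 2 on that scale. Other B cell lists had r over 16 arrays of 0.798 (survival and costimulation), 0.648 (receptor signalling and coreceptors), 0.240 (class II), 0.018 (follicle and homing) and -0.148 (plasma cell). With group means removed these values were 0.782, 0.579, 0.195, 0.521 and 0.243.

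Among all genes other than the 7, those whose pattern over 16 arrays was most like the mean of the 7 genes were Btla (r = 0.958), an inhibitory receptor of B and T cells, Ikzf3 (0.944), Gpr174 (0.916), a lysophosphatidylserine receptor of lymphocytes, Ralgps2 (0.904), B3gnt5 (0.893), Fcho1 (0.891), Il21r (0.882), the receptor of interleukin 21, and Xkrx (0.875). Without normoxia replicates 1 and 4 these values lay between 0.638 for Fcho1 and 0.885 for Btla. With group means removed the 8 most alike were Btla (0.933), Ikzf3 (0.919), B3gnt5 (0.910), Gpr174 (0.909), the immunoglobulin M receptor Fcmr (0.862), Prkcb (0.862), the homing receptor Ccr6 (0.837) and Ralgps2 (0.833). Without normoxia replicate 2 and hypoxia replicate 2 these lay between 0.802 for Ccr6 and 0.945 for Ikzf3. These are descriptions over arrays that share the same rats. The r over 16 arrays takes in the group differences, so genes chosen by it tend to fall in hypoxia as the 7 genes did. Their differences below are therefore not separate findings.

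Btla gave 7.43, 7.05, 7.61 and 7.54 in hypoxia, against 9.05, 7.84, 8.0 and 9.02 in normoxia. Its difference was -1.07 (SE 0.25, adjusted p = 0.0191), with no overlap, as in 5.33% of all genes with hypoxia lower. The same split of the normoxia arrays was seen, which the choice by r over these arrays favoured. Gpr174 fell by 0.91 (adjusted p = 0.00242), Xkrx by 0.80 (adjusted p = 0.00898), Ralgps2 by 0.64 (adjusted p = 0.00552) and Fcho1 by 0.52 (adjusted p = 0.00404) in hypoxia against normoxia. B3gnt5 (-0.69, adjusted p = 0.153), Il21r (-0.53, adjusted p = 0.0522), Fcmr (-0.27, adjusted p = 0.449) and Ccr6 (-0.08, adjusted p = 0.826) did not pass. The call on Btla held in 20 of 26 alternatives and was lost without normoxia replicate 1 or 4 or hypoxia replicate 1 or 2, and those on Gpr174, Xkrx, Ralgps2 and Fcho1 each held in 25. All 5 were lost with normoxia replicate 4 counted as hypoxia, where adjusted p lay between 0.267 for Ralgps2 and 0.459 for Btla.

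**Figure D4:**
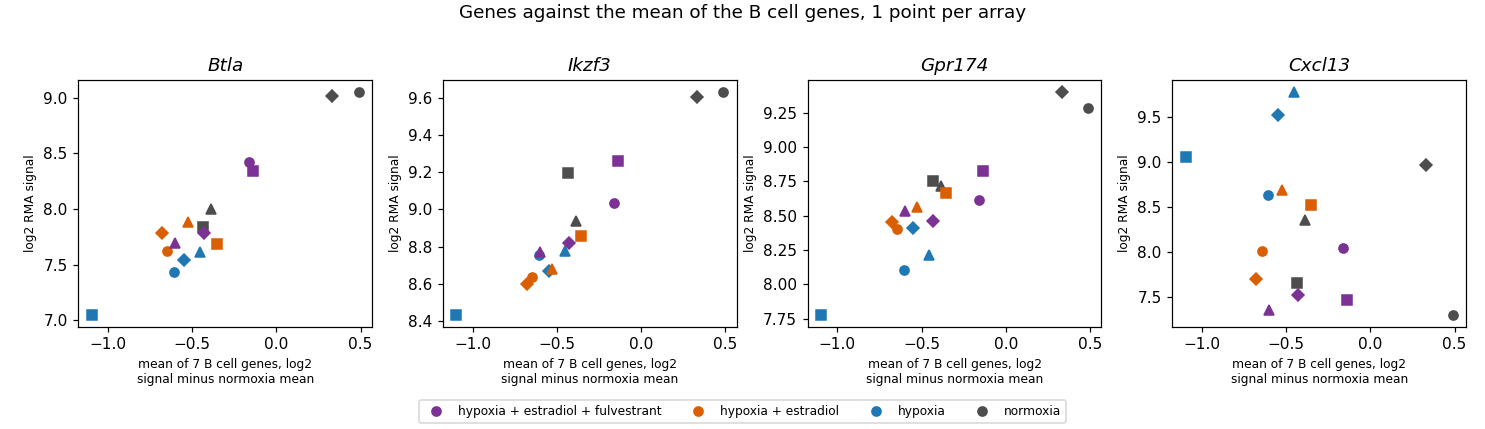
Log2 RMA signal of Btla, Ikzf3, Gpr174 and Cxcl13 (vertical axes) against the mean of the 7 B cell genes minus its normoxia mean (horizontal axes), 1 point per array, coloured by group and with marker shapes for replicates 1 (circle), 2 (square), 3 (triangle) and 4 (diamond). Normoxia replicates 1 and 4 sit at the upper right and hypoxia replicate 2 at the lower left for Btla, Ikzf3 and Gpr174, while Cxcl13 has no such order. Btla, Ikzf3 and Gpr174 are shown for their high r with that mean, and Cxcl13 was not chosen by r.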

How the data were processed

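The deposited values are log2 signals of RMA, which corrects background, aligns the distributions of the arrays and summarises probes into probe sets; per the submitters' processing notes the authors used RMA and Partek, with versions and settings not given in the sources used here. A shift shared by most genes would therefore not be seen, and differences of dim probe sets are compressed. Total RNA had integrity numbers of at least 9, per the labels. Of 29214 probe sets, 15310 carried exactly 1 symbol, 323 several and 13581 none, and the probe set with the highest mean was kept for each of 527 genes with several, which left 14506 genes. Arrays carry no count depth, and 4 per group set the precision.

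From these values limma 3.58.1 in R 4.3.3 fitted 4 group means over 16 arrays with empirical Bayes moderation, tested on simulated data. Of 6 pairwise comparisons, 3 were main (hypoxia against normoxia, estradiol added, fulvestrant added). Named were the B cell genes, Cxcl13, up to 4 called genes with the largest changes per list and comparison, and the 8 genes most alike by r in each of 2 ways; Foxo1 in hypoxia against normoxia was named beyond that rule to complete the count of 5. The genes, lists and rules were chosen with earlier results of these data known. Groups follow sample titles, and replicate numbers follow submission order and pair nothing. No batch was labelled and submission order follows the groups, so batch and treatment cannot be told apart. The p values measure spread between rats. Alternatives were other scalings, filters, probe set rules, fits and weights, the other label of normoxia replicate 4, and arrays left out.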

Additional observations from a re-analysis of the deposited data

Results flagged for a closer look

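In 28 groups of 4 arrays, 7 genes in 4 groups, the gap of the highest or lowest array to its nearest neighbour was set against the group's range by Dixon's test at the 95% level, and 2 groups stood out. Chance alone marks about 1 group in 20. Ms4a1 in hypoxia replicate 2 was at a log2 signal of 6.50, with the other 3 hypoxia arrays between 7.51 and 7.63. The same array was the lowest hypoxia array in all 7 genes. Pou2af1 in replicate 3 of hypoxia with estradiol and fulvestrant was at 8.20, with the other 3 arrays of that group between 8.63 and 8.68. That array was the lowest of its group in 5 of 7 genes.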

How the results depend on the processing

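There were 26 alternatives: 10 changes of processing or grouping and 16 fits without 1 array (25 for fulvestrant added to estradiol). In hypoxia against normoxia, where 2 of the 7 B cell genes passed, 1 passed with all probe sets tested or with only the 2 groups fitted, 4 with array weights and 0 with normoxia replicate 4 counted as hypoxia, and leaving out 1 array gave 0 to 5. In hypoxia with estradiol against normoxia, where 1 passed, 2 passed after repeated quantile normalization, with the dimmest 25% of genes left out (10879 tested) or with a trended prior, and 0 with only the 2 groups fitted, with array weights or with normoxia replicate 4 counted as hypoxia, and leaving out 1 array gave 0 to 2. The count stayed at 0 in every alternative of the other 4 comparisons. All 7 genes stayed below zero in all 26 alternatives of hypoxia against normoxia. The cause of these changes was not tested.

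Signs that turned were all of differences that did not pass. Ranges are over the fits without 1 array. Estradiol against hypoxia turned for Cd79b with array weights (0.087) and without estradiol replicates 2 and 3 together (0.0066), with a range of -0.28 to 0.040. It turned for Ms4a1 with normoxia replicate 4 as hypoxia (-0.12), with a range of -0.071 to 0.31. It turned for Cr2 with normoxia replicate 4 as hypoxia (-0.047) and without estradiol replicates 2 and 3 (-0.074). It turned in the same 2 ways for Pou2af1 (-0.13 and -0.13, range -0.073 to 0.079) and for Cxcr5 (-0.10 and -0.087, range -0.058 to 0.11). Fulvestrant against hypoxia turned for Pou2af1 with normoxia replicate 4 as hypoxia (-0.012). Fulvestrant against normoxia had a range of -0.14 to 0.014 for Blk. Fulvestrant added to estradiol had a range of -0.030 to 0.17 for Cd22 and of -0.010 to 0.26 for Cr2. In hypoxia against normoxia, Fcmr (0.025) and Ccr6 (0.064, range -0.16 to 0.015) turned with normoxia replicate 4 as hypoxia. Cxcl13 in estradiol against normoxia turned without estradiol replicates 2 and 3 (-0.22), with a range of -0.095 to 0.46.

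No paired analysis was possible because the titles number the arrays through the series and no number is shared between groups. Small groups and dim signals limit the precision of small differences, and signal over background was not analysed here.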

Other observations

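Jchain, which encodes the joining chain of secreted immunoglobulin M and A and marks plasma cells, had the lowest log2 difference of all 14506 genes when fulvestrant was added to estradiol. It was singled out after its values were seen. It gave 9.32, 8.96, 9.33 and 10.34 with fulvestrant, against 10.64, 11.97, 11.52 and 10.68 with estradiol alone. The difference was -1.71 and did not pass (limma, adjusted p = 0.0703). It lay between -2.00 and -1.17 over 25 alternatives, of which 1 brought it past the threshold. Against normoxia the estradiol group was 1.33 higher in Jchain (adjusted p = 0.0572), which did not pass either. The 7 B cell genes had differences between 0.05 and 0.53 where Jchain stood at -1.71, and the other 6 plasma cell genes measured did not pass.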
